A study of Mus musculus with 2 samples.

Results

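The 31 genes described here mark macrophages and other leukocytes, cells of blood origin that settle in every embryonic organ. Non-control probes were taken where the scanner files gave one of the chosen gene names, with Emr1 and Adgre1 counted as 1 gene. This gave 38 probes for 30 genes, out of 39429 probes on the array. After probes too dim in both genotypes were left out, 37 of these probes and 29 of the genes were among the 21097 genes tested. Fcgr1 was left out at that step. Spi1 had no probe under that name, and its probe, written with the older name Sfpi1, is described apart.

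The samples were ureters of male NMRI mouse embryos at E13.5, when the ureter is a young epithelial tube in its mesenchyme. Tbx2-GOF embryos were Tbx18(cre/+);Hprt(Tbx2/Y), and control embryos were Tbx18(+/+);Hprt(Tbx2/Y), so the Tbx2 allele at Hprt was present in both genotypes and cre, at 1 Tbx18 allele, in Tbx2-GOF alone. Cre made from the Tbx18 locus acts in cells that express Tbx18, chiefly the ureteric mesenchyme, and in their descendants. There were 2 arrays, each with 1 Tbx2-GOF and 1 control extract in 2 colours, and the dyes were swapped: Tbx2-GOF was red on array 1 and green on array 2. The labels leave unstated whether ureters were pooled and whether different embryos supplied the replicate extracts. The p-values therefore rest on array-to-array spread that may be technical. With 2 arrays, array and dye orientation cannot be told apart within 1 ratio.

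Macrophages of the embryo arise from progenitors of the yolk sac and foetal liver and depend on the receptor CSF1R for their survival. They clear dying cells, a task served by scavenger receptors, Fc receptors, complement C1q and lysosomal enzymes, and their identity rests on the ETS-family transcription factor PU.1, the product of Spi1. Because the extracts were whole ureters, a difference in the number of such cells and a difference in RNA per cell cannot be told apart in any value below.

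No macrophage or leukocyte gene passed limma's moderated test between the genotypes, although some small ratios, such as those of Coro1a and Ptprc, exceeded their own SD between the arrays. By limma's test over all genes, 0 of 29 were higher and 0 lower in Tbx2-GOF at an adjusted p under 0.05, against 0.36% and 0.28% of all genes tested (0.64% in either direction). At an unadjusted p under 0.05 there were also 0 higher and 0 lower, against 5.63% and 3.71%. The separate-channel model called 0 of 29, but only 4 of all 21097 genes, so its count says little about these genes. The lowest adjusted p of the 29 was 0.668, for Laptm5. With all 37 kept probes entered singly, 0 passed in either direction (background 0.246% higher and 0.174% lower), with a lowest adjusted p of 0.635. At the unadjusted threshold 0 of these probes passed, against 5.12% of all kept probes higher and 3.39% lower. Mean log2 ratios of Tbx2-GOF over control ran from -0.13 (Cd14) to 0.28 (Ms4a7), the latter a 1.22-fold difference. The 95% intervals of the single genes, from limma's moderated error and not adjusted for the number of genes, lay between -0.44 and 0.71 on the log2 scale.

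On array 1 nearly all of these genes were above 0, and on array 2 most were not. The count above 0 was 28 of 29 on array 1 (50.5% of all genes) and 11 of 29 on array 2 (50.5% of all genes). The median log2 ratio was 0.29 on array 1, -0.04 on array 2 and 0.12 for the mean of the arrays, while all genes tested had medians of 0.00 on each array. The ratio was larger on array 1 than on array 2 for 28 of 29, against 49% of all genes. A total of 17 were above 0 on array 1 and below 0 on array 2 (24.4% of all genes), 11 were above 0 on both (26.1%), 1 was below 0 on both (25.1%) and 0 showed the opposite pattern (24.4%). Since the red dye lay on Tbx2-GOF on array 1 and on control on array 2, these 17 were brighter in red on both arrays. The ratios of the 2 arrays had a Pearson correlation of -0.03 over the 29 genes, which share 2 pairs of extracts and are not independent. Over all genes it was 0.31.

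**Figure D1:**
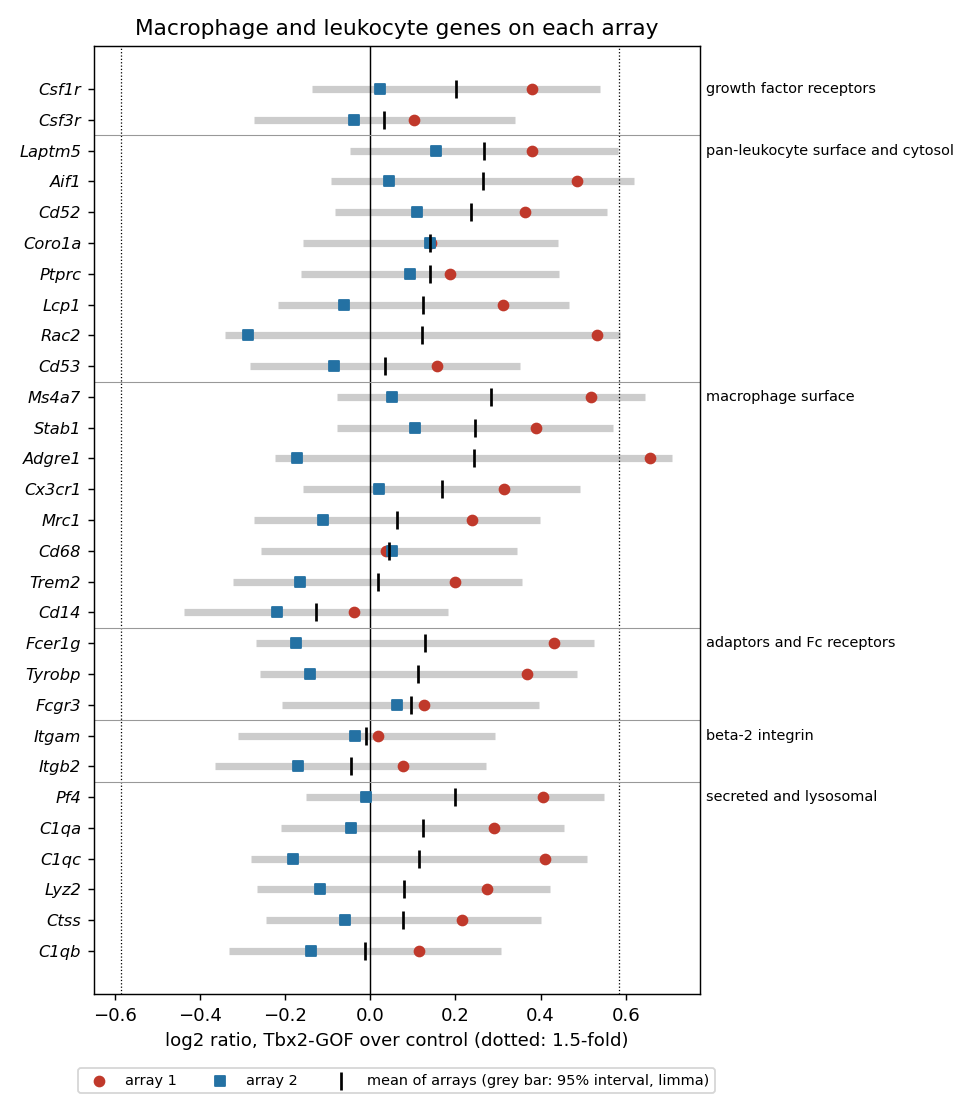
Log2 ratio of Tbx2-GOF over control (x axis) for each of the 29 genes tested (rows, grouped by role): circles are array 1, squares array 2, ticks their mean and grey bars the 95% interval from limma. All but Cd14 lie right of 0 on array 1, 11 do so on array 2, every interval crosses 0, and only Adgre1 passes the dotted 1.5-fold line on an array.

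**Figure D2:**
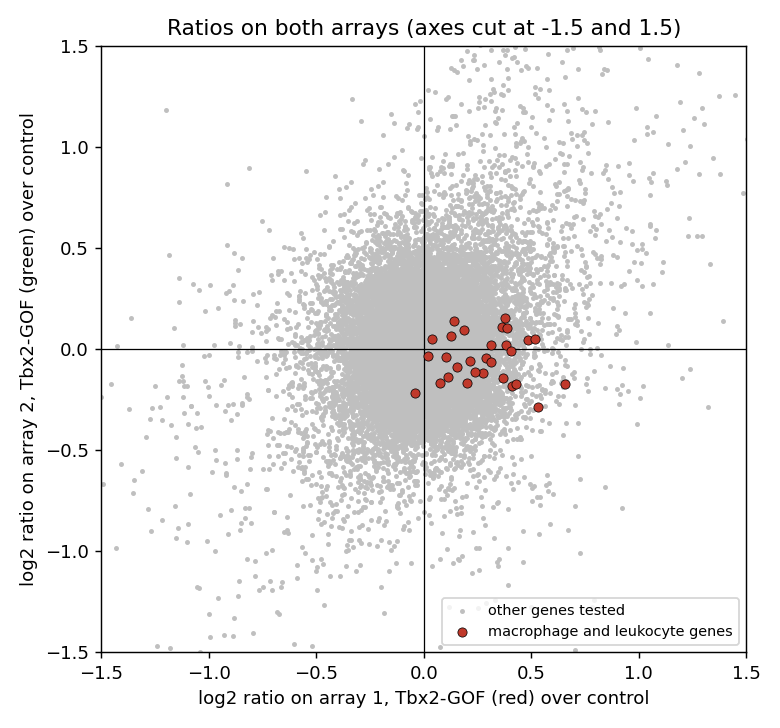
Log2 ratio on array 1 (x axis) against array 2 (y axis) for all genes tested (grey) and the 29 macrophage and leukocyte genes (red), both axes cut at -1.5 and 1.5. The red points lie inside the cloud of other genes, with 17 of the 29 right of 0 on array 1 and below 0 on array 2.

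The lineage factor PU.1 was measured by the probe written as Sfpi1, which matched Spi1 through its RefSeq accession. The normalised log2 intensity of Spi1 in Tbx2-GOF was 8.76 on array 1 and 8.98 on array 2, and in control 8.37 and 8.84. Tbx2-GOF was the higher channel on each array, and the groups overlapped, because control on array 2 exceeded Tbx2-GOF on array 1. Its mean log2 ratio was 0.26 ± 0.18 (SD, n = 2; limma adjusted p = 0.687).

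Csf1r encodes the receptor for the macrophage growth factors CSF1 and IL34. It was at 12.86 and 12.90 in Tbx2-GOF and at 12.48 and 12.88 in control on arrays 1 and 2. Only control on array 1 stood apart, and the mean ratio was 0.20 ± 0.25. The other probes of Csf1r had mean ratios of 0.08 and 0.11, with 0.05 and 0.12 on array 1 and 0.10 on array 2 for both. Csf3r, the receptor gene for the granulocyte growth factor, was at 0.10 and -0.04 on the 2 arrays. Its single probe was the brightest of the 29 genes, at a mean log2 intensity of 15.26. Its mean level was only 0.02 higher on array 2 than on array 1, against a median of 0.52 over the 29. What this brightness reflects was not tested. Of the ligands, Csf1 had ratios of 0.21 and 0.07, Il34 of -0.11 and 0.12, and the CX3CR1 ligand gene Cx3cl1 of 0.35 and -0.05, and 0 of these 3 passed the test.

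Among 8 genes of macrophage surface proteins the median ratio was 0.28 on array 1 and -0.05 on array 2. Ms4a7, a tetraspan membrane protein of macrophages, had the highest mean of all 29. Its level was 11.37 and 11.84 in Tbx2-GOF and 10.85 and 11.79 in control on arrays 1 and 2. The lowest value was control on array 1, and the groups overlapped (mean ratio 0.28 ± 0.33, adjusted p = 0.715). Cd14, the co-receptor for bacterial lipopolysaccharide, had the lowest mean and was the 1 gene below 0 on both arrays. Its level was 8.89 and 9.16 in Tbx2-GOF and 8.93 and 9.38 in control, with overlap (mean ratio -0.13 ± 0.13, adjusted p = 0.974).

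Adgre1 encodes an adhesion receptor used as the classical marker of mouse macrophages and is written Emr1 in the scanner files. It was 1 gene of 29 at least 1.5-fold higher on array 1 (1.91% of all genes), at 1.58-fold, and 0 of 29 were that much lower there (1.65%). On array 2, 0 of 29 were that far apart (3.57% higher and 2.26% lower), so 0 were so on both arrays (0.825% higher and 0.545% lower). Its level was 10.77 on array 1 and 11.05 on array 2 in Tbx2-GOF, and 10.12 and 11.23 in control, so the control extracts held both its lowest and its highest value. The mean ratio was 0.24 ± 0.59 (adjusted p = 0.919), the widest spread of the 29. A dimmer Adgre1 probe, at chr17:57620350-57620409 on mm9, ran the same way, at 0.36 and -0.05. Its sequence is shown because it is a separate oligonucleotide for the same transcript.
Adgre1: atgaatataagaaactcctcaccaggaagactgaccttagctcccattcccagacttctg

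Cx3cr1, the fractalkine receptor, was at 0.32 and 0.02 on the 2 arrays, and its second probe at 0.28 and -0.05. Stab1, a scavenger receptor that sinusoidal endothelium shares with macrophages, was at 0.39 and 0.11. Mrc1, the mannose receptor, was at 0.24 and -0.11, and Trem2, a lipid-sensing receptor, at 0.20 and -0.17. Cd68, a lysosomal membrane glycoprotein, was at 0.04 and 0.05. In this group 4 of 8 were above 0 on both arrays, 3 above 0 on array 1 alone and 1 below 0 on both.

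The adaptors Tyrobp and Fcer1g carry the activating motifs through which TREM2 and Fc receptors signal. Fcer1g was at 13.23 and 13.51 in Tbx2-GOF and at 12.80 and 13.69 in control, a ratio of 0.43 on array 1 and -0.17 on array 2. Tyrobp ran alike, at 0.37 and -0.14. In both genes control spanned the whole range of values, with Tbx2-GOF between. The Fc receptor gene Fcgr3 was at 0.13 and 0.06. Fcgr1, the high-affinity Fc receptor gene, was well above background on 1 of 2 arrays in each genotype. It was not tested, and its ratios were 0.19 and -0.12.

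Itgam and Itgb2 encode the chains of the leukocyte integrin that is also complement receptor 3. Itgb2 was at 0.08 and -0.17, and Itgam, by its brightest probe, at 0.02 and -0.04. That probe, at chr7:135261755-135261814 on mm9, opens with a dinucleotide repeat of 20 bases, and it was the 1 of 38 probes with at least 5 CA units in a row. Its first 30 bases are set beside a probe of the same gene without the repeat, at chr7:135212140-135212199, with repeats in capitals.
Itgam, repeat probe: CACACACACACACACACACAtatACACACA
Itgam, second probe: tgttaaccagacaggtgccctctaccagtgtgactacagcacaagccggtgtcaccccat
The second probe had ratios of 0.03 and -0.20 and the third of 0.01 and -0.14. The 3 probes had the same sign of the mean, at -0.01, -0.08 and -0.07, but far different brightness. Their mean log2 intensities were 13.52 for the repeat probe, 7.41 for the second and 6.93 for the third. For the third probe Tbx2-GOF was well above background on 1 of 2 arrays. The part of the repeat in the brightest probe's value was not tested.

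Of 8 genes of pan-leukocyte surface and cytosolic proteins, 8 were above 0 on array 1 and 5 on array 2, with medians of 0.34 and 0.07. Laptm5, a lysosomal membrane protein that dampens antigen receptor levels, was at 8.69 and 8.88 in Tbx2-GOF and at 8.31 and 8.72 in control. Its mean ratio was 0.27 ± 0.16, and its second probe had 0.44 and 0.19. Ptprc, the common leukocyte phosphatase, was at 8.15 and 8.15 in Tbx2-GOF and at 7.97 and 8.06 in control. It was the 1 gene of 29 whose Tbx2-GOF levels both exceeded both control levels, an order that 18.3% of all genes showed, and 0 of 29 had both below (16.3%). The difference was small, at 0.14 ± 0.07 (adjusted p = 0.950).

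Rac2, the GTPase of the leukocyte oxidase and cytoskeleton, gave the widest swing of this group. Its level was 10.34 on array 1 and 10.59 on array 2 in Tbx2-GOF, and 9.81 and 10.87 in control, so the ratio went from 0.53 to -0.29. The actin regulator gene Coro1a was at 0.14 on each array. Aif1, a calcium-binding protein of macrophage ruffles, was at 0.49 and 0.04, and Cd52, a short lipid-anchored glycoprotein of lymphoid and myeloid cells, at 0.36 and 0.11. The tetraspanin gene Cd53 was at 0.16 and -0.09. Lcp1, the actin bundler L-plastin, was at 0.31 and -0.06 by its brighter probe and at 0.00 and 0.10 by the other.

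Each of 6 genes of secreted and lysosomal proteins was above 0 on array 1 and below 0 on array 2. The complement genes C1qa, C1qb and C1qc lie side by side on chromosome 4 and encode the chains of C1q, which starts the classical complement cascade. C1qc was at 12.90 and 13.20 in Tbx2-GOF and at 12.49 and 13.38 in control. C1qa had ratios of 0.29 and -0.04, and C1qb of 0.11 and -0.14. In each of the 3 the lowest and the highest level both belonged to control. Lyz2, lysozyme, was at 0.27 and -0.12, the protease gene Ctss at 0.22 and -0.06, and Pf4, a chemokine of platelets and some macrophages, at 0.41 and -0.01. The probes for C1qa (chr4:136452409-136452468, mm9, minus strand) and C1qb (chr4:136436578-136436637, minus strand) are shown with that of Tyrobp, whose coordinates span 1728 bases of chromosome 7, because these 3 single oligonucleotides carry the values of their genes.
C1qa: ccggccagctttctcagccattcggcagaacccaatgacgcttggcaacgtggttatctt
C1qb: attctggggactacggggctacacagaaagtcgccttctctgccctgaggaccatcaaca
Tyrobp: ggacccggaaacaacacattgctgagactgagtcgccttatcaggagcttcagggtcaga

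The probes of C1qc and Rac2 were printed 10 times on each array, which shows the spread of the measurement within an array. For C1qc, 8 spots per array were not marked as outliers, with log2 ratios from 0.33 to 0.48 on array 1 (SD 0.05) and from -0.27 to -0.12 on array 2 (SD 0.05). For Rac2 the 10 spots ran from 0.46 to 0.62 on array 1 (SD 0.05) and from -0.39 to -0.23 on array 2 (SD 0.06). Over all 399 probes printed 10 times, the median SD was 0.07 on each array. For both genes no spot of array 1 came near a spot of array 2, so the difference between the arrays was larger than the spread between spots.

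**Figure D3:**
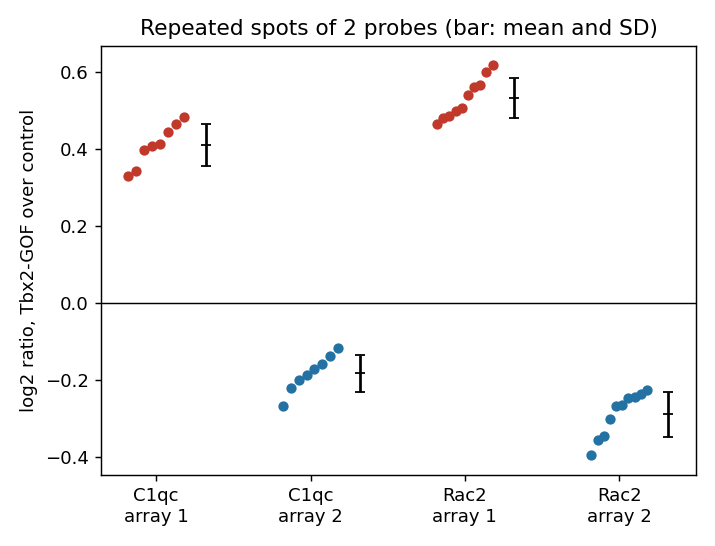
Log2 ratio of Tbx2-GOF over control (y axis) for each unmarked spot of the C1qc probe (8 per array) and the Rac2 probe (10 per array), array 1 in red and array 2 in blue, with the mean and SD of the spots. All spots of array 1 lie at 0.33 or above and all spots of array 2 at -0.12 or below.

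The signal of these genes differed more between the arrays than between the genotypes. Levels were compared after the arrays had been brought to 1 distribution of mean intensity. In control the median level was 0.58 log2 units higher on array 2 than on array 1, and in Tbx2-GOF 0.28 higher. Both genotypes were higher on array 2 for 27 of 29 genes, against 26.4% of all genes tested, whose median shifts were -0.01 in control and 0.00 in Tbx2-GOF. The exceptions were Cd68, lower on array 2 by 0.12 in Tbx2-GOF and by 0.13 in control, and Csf3r, at -0.05 and 0.09. The mean of both channels holds 1 red and 1 green signal on each array, and its median difference was 0.52, against a median genotype ratio of 0.12. Cd52 differed most, by 0.95 in Tbx2-GOF and 1.20 in control, followed by Tyrobp (0.53 and 1.04) and Lyz2 (0.59 and 0.98). Which property of the extracts or arrays this follows was not tested.

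**Figure D4:**
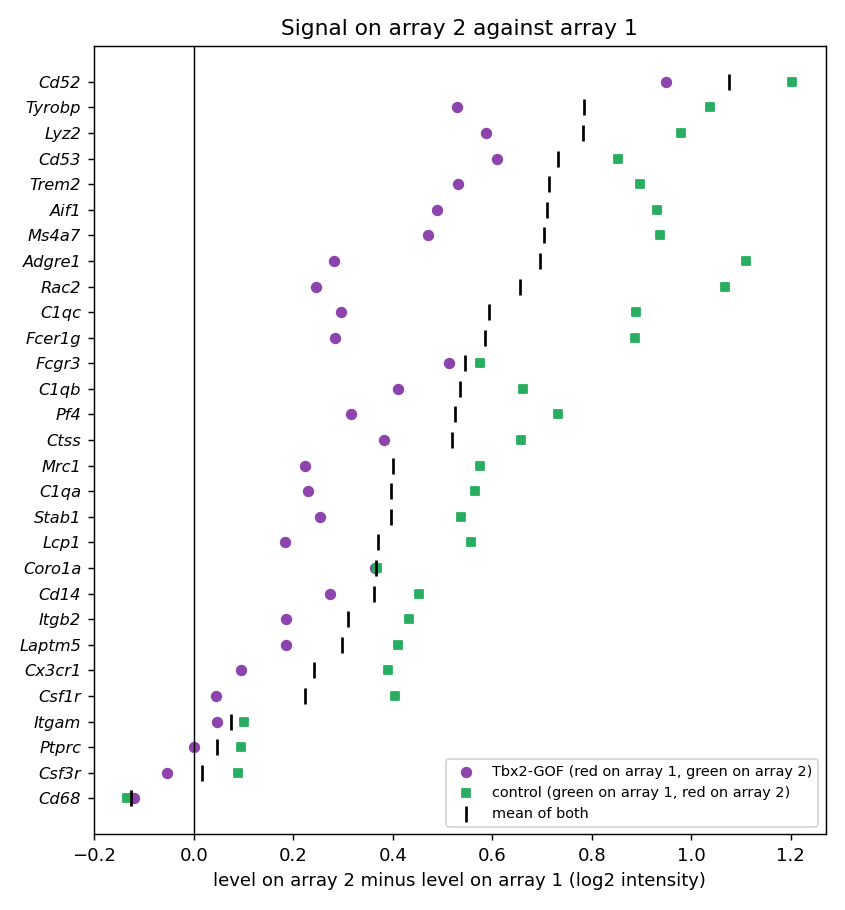
Level on array 2 minus level on array 1 (x axis, log2 intensity) for each of the 29 genes (rows, ordered by the mean): circles are Tbx2-GOF, squares control and ticks the mean of both. For 27 genes both symbols lie right of 0, and for 28 the square of control lies right of the circle of Tbx2-GOF.

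Among other cell types and tissues, some gene lists held genes past the test, and levels of these and other lists also differed between the arrays. The liver and plasma protein list had 6 of 11 genes lower in Tbx2-GOF by limma's test, against 0.28% of all genes. Afp (-2.95), Alb and Serpina6 lay farthest from 0. The skeletal muscle list had 4 of 10 lower (Chrna1, Acta1, Myh8 and Tnnt3), against the same 0.28%. Its medians were -1.58 and -0.64 on the arrays in turn. The neural and Schwann list had 2 of 14 higher (0.36% of all genes), Fabp7 (1.57) and Th (1.34), with medians of 0.54 and 1.63. Erythroid genes had 0 of 13 called (0.64% of all genes), with medians of -0.13 and -0.40. Of the 13, 9 were below 0 on both arrays (25.1%) and 7 lower at an unadjusted p under 0.05 (3.71%). Endothelial genes had 0 of 13 called, with medians of 0.34 and 0.13 and 4 higher at the unadjusted threshold (5.63%). Unlike the macrophage genes, 11 of 13 endothelial genes were above 0 on both arrays (26.1% of all genes), but this difference was not tested. Between the arrays, the median of the mean level was 0.51 higher on array 2 for skeletal muscle, 0.27 for erythroid and 0.12 for endothelial genes. It was lower for neural genes (-0.42). By genotype the median shifts for skeletal muscle were 1.07 in Tbx2-GOF and 0.13 in control, and for neural genes 0.07 and -0.90. For erythroid genes they were 0.10 and 0.40, and for endothelial genes 0.06 and 0.19. The part of such tissue in the macrophage values was not tested. Of 13 genes of the ureter itself, 1 was called lower, the uroplakin gene Upk3a (-0.86), against 0.28% of all genes. On both arrays 2 of the 13 were above 0 and 5 below 0 (26.1% and 25.1% of all genes). As a check of the tissue, the mesenchymal gene Tbx18 and the epithelial signal gene Shh, picked after their values were seen, were well above background in both genotypes on both arrays. Their mean ratios were -0.45 and 0.31, and neither passed the test. Tbx2-GOF embryos carried cre at 1 Tbx18 allele, so the Tbx18 ratio cannot be told apart from that allele difference.

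**Figure D5:**
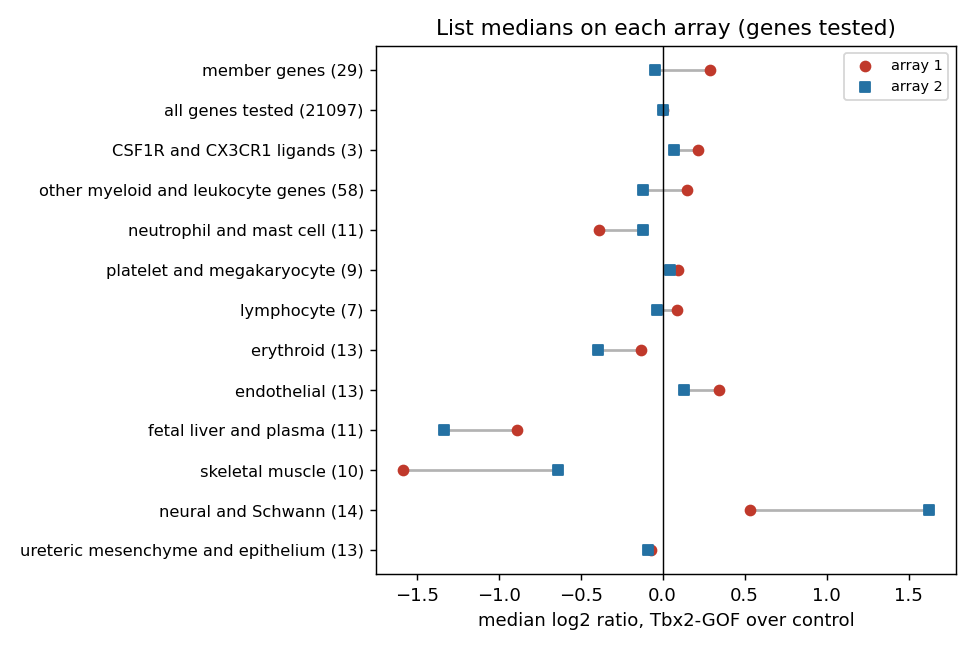
Median log2 ratio of Tbx2-GOF over control (x axis) on array 1 (circles) and array 2 (squares) for the macrophage and leukocyte genes ("member genes"), all genes tested and 11 other lists, with the number of genes tested. The macrophage and leukocyte medians are 0.29 and -0.04, and those of the neural, skeletal muscle and liver lists lie farther from 0 on both arrays.

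A wider list of 58 tested myeloid and leukocyte genes, which shares no gene with the 29, gave 0 higher and 0 lower by limma's test. At an unadjusted p under 0.05, 2 were higher and 2 lower, against 5.63% and 3.71% of all genes. The medians were 0.15 on array 1 and -0.12 on array 2. A total of 44 were above 0 on array 1 and 19 on array 2 (50.5% of all genes on each), and the ratio of 47 of 58 was higher on array 1 (49%). Among the genes farthest from 0 were H2-Ab1, a class II antigen-presentation chain, at 0.99 and 0.04, and the myeloid transcription factor gene Cebpa, at -0.17 and -0.68. In this list control levels were higher on array 2 in 54 of 58 genes, with a median difference of 0.44, and Tbx2-GOF levels in 41, with a median of 0.13. Over all 21097 genes the counts were 10296 in control and 10273 in Tbx2-GOF. Both genotypes were higher on array 2 in 39 of 58, against 26.4% of all genes.

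Promoters were read from RefSeq's GRCm38.p6 table, which held 22 of the 30 genes, over 250 bases before each start. The letters GAGGAA, an ETS core of the kind PU.1 binds, were found on either strand in 16 of 22, against 25.9% of 27025 genes. The T-box core GGTGTGA was found in 1 of 22 (Ms4a7), against 3.84%. A match is a description of the letters, not a site. The windows of Ms4a7, the gene with the highest mean ratio, held 0 matches to GAGGAA and are not shown. The C1qb, C1qc and Laptm5 windows, each with a match, are shown. C1qb and C1qc are neighbours that were above 0 on array 1 and below 0 on array 2, a pattern of 17 of the 29 genes. Laptm5 had the lowest adjusted p. All are written along the gene, at chr4:136886201-136886450 (minus strand), chr4:136892915-136893164 (minus strand) and chr4:130913066-130913315 (plus strand), with GAGGAA or its complement TTCCTC in capitals.
C1qb: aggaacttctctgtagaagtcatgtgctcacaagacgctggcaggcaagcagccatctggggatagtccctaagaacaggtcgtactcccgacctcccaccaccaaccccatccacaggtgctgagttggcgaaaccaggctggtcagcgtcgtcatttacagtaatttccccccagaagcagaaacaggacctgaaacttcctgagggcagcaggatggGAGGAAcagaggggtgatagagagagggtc
C1qc: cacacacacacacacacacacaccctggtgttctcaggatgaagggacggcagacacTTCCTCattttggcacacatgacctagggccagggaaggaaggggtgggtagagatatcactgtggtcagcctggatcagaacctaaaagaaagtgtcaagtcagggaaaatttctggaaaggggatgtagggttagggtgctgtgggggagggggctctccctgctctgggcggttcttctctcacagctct
Laptm5: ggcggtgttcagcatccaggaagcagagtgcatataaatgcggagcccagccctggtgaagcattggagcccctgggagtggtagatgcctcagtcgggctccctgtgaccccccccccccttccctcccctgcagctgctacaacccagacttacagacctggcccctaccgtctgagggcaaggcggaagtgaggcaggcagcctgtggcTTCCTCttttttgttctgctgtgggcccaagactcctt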

How the data were processed

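Spot signals and backgrounds were deposited as intensity values on a linear scale, together with processed intensity after background subtraction and dye normalization by the scanner software (per the file headers). The submitters' processing notes name Feature Extraction 10.7.3.1. Also deposited was a log10 ratio, red divided by green. The deposited series table holds a signed fold score. Its scale and direction were unstated and were worked out here. Of the probes compared for this, 99.2% (array 1) and 98.8% (array 2) matched the turned log ratio within 0.01 (log10 scale). The score was exactly 1 for 31.5% of entries on array 1 and for 31.1% on array 2. Its median was 1 on both arrays.

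Intensities were corrected here with limma 3.58.1 (R 4.3.3), by normexp with an offset of 50 and loess within arrays (span 0.3), control and outlier spots at weight 0. The log2 ratios, computed here from the deposited intensities, were turned by the labelled dyes. A probe was kept where either genotype was well above background on both arrays, and the kept probe with the highest mean intensity stood for its gene. RefSeq accessions (GRCm38.p6) named 67.0% of probes. Tests used lmFit and eBayes, two-sided, with Benjamini-Hochberg adjustment at 0.05. They were run on simulated data with independent random errors on the arrays and effects larger than the mean ratios of the genes described. That check does not cover array spread that is only technical, or differences as small as these. Single-channel levels followed Aquantile. Each array held 43020 spots, and a genotype's channel was well above background for 66.4% to 72.7% of probes. Of the spots described, 2 per array were marked as outliers and 0 were saturated. The number of arrays limits the precision. The genes and lists were chosen with earlier results of these data known. All genes of the list were accounted for, and those with the highest and lowest mean, or 1.5-fold apart on an array, were given in full, with at most 3 genes of each other list by the size of their mean, besides those past the test. Exceptions are named in the text as chosen after their values were seen. Probes keep the mm9 coordinates given in the files. Exon and UTR positions were not analysed here.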

Additional observations from a re-analysis of the deposited data

How the results depend on the processing

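The 11 alternatives that used both arrays (offset 0, no background correction, processed signals, median centring, scaling between arrays, no filter and a strict filter on dim probes, the mean of probes, trend with robust estimation, the separate-channel model and the series value table) each left 0 of the macrophage and leukocyte genes past the test, while calls over all genes ranged from 0 to 313. Their median log2 ratio stayed between 0.10 and 0.14, and with 1 array left out it was -0.04 or 0.29, values with no test. Of 319 values of single genes under these alternatives, 318 kept their sign and their side of the threshold, and Csf3r changed sign with median centring, at -0.0136. Many of these signs could not change. Changing the filter, the error estimation or the model left each gene's ratio as it was, as did averaging probes for genes with 1 probe. The deposited fold score gave nearly the ratios of the processed signals. Under the alternatives that called 0 of all genes, staying below the threshold says nothing about these genes. The count above 0 ranged from 27 to 29 on array 1 and from 8 to 14 on array 2. The higher level on array 2, a difference of 0.52, was at 0.50 to 0.52 with median centring of levels, run on the same signals, on processed signals and without background correction, alternatives chosen after seeing the data. The test on ratios within arrays pairs the genotypes by array, and no further block could be added.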

Other observations

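Other blood cells were measured too. Of 11 neutrophil and mast cell genes 0 passed limma's test (3 were lower at an unadjusted p under 0.05, against 3.71% of all genes). On array 1, 0 of 11 were above 0, against 5 of 11 on array 2 (50.5% of all genes on each). The medians were -0.39 and -0.12 on the arrays in turn. The 3 with the largest mean differences were below 0 on both arrays. Of these, Camp, a neutrophil granule peptide, was at -0.73 and -0.48, and the calprotectin chain genes S100a9 and S100a8 were at -0.61 and -0.28 and at -0.48 and -0.22. Other neutrophil genes had opposite signs on the arrays, such as the granule protein genes Ngp, at -0.89 and 0.32, and Ltf, at -0.39 and 0.41. Hdc, the histamine-producing enzyme gene of mast cells, was at -1.20 on array 1 and 1.18 on array 2, so its mean of -0.01 hides opposite ratios. The median of the mean level of both channels was 0.71 higher on array 2 for this list, against 0.52 for the macrophage and leukocyte genes. Single genes differed widely, by -0.19 to 2.61 in Tbx2-GOF and by -2.57 to 2.34 in control. Both genotypes were higher on array 2 in 7 of 11, against 27 of the 29 macrophage and leukocyte genes and 26.4% of all genes.

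Of 9 platelet and megakaryocyte genes 0 passed (2 higher and 1 lower at the unadjusted threshold, against 5.63% and 3.71% of all genes), with medians of 0.09 and 0.05. Clec1b, a platelet activating receptor, was at 0.74 and 0.38, the platelet chemokine gene Ppbp at 0.51 and 0.25, and F13a1, a coagulation factor chain that macrophages also make, at -0.26 and -0.63. Of 14 lymphocyte genes 7 were bright enough to test and 0 passed, with medians of 0.09 and -0.04. At the unadjusted threshold 0 were higher and 1 lower, against the same 5.63% and 3.71%. Lyve1, found on lymphatic vessels and on some macrophages, was at 0.57 and -0.67, and like Hdc, Ngp and Ltf was chosen after its values were seen.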
